A study of Mus musculus with 5 samples.

Results

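The immediate-early and AP-1 genes Fos, Fosb, Fosl2, Jun, Junb, Egr1, Atf3, Ier2, Ier3 and Myc were followed in RNA-seq of kidney cortex. The cortex came from mice with a tubular deletion of Prdm16 and from their controls. The 10 genes were taken by name from the deposited tables, which list 35478 genes, and each was found once. All mice were males of 7 to 8 weeks on a mixed C57BL/6J;129 background and carried 2 floxed Prdm16 alleles, in which loxP sites flank exon 9. The control group was 2 Prdm16fl/fl mice, numbered 1 and 3 in the labels, without Cre. The other group was 3 Ksp-Cre/Prdm16fl/fl mice, numbered 1, 2 and 3, in which the Ksp-cadherin promoter drives Cre in tubular epithelium and not in stroma, vessels or leukocytes. Both groups had undergone unilateral ischemia-reperfusion injury (UIRI), with the left renal pedicle clamped for 35 minutes on a metal bath at 38.5°C. The right kidney was removed at day 10, and collection followed at day 11. The groups are called control and Ksp-Cre mice from here on. Every library therefore came from an injured kidney, and uninjured kidneys were not analysed here.

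Immediate-early genes are transcribed within minutes of a stimulus without new protein synthesis, and their mRNAs are short-lived. Growth factors, cytokines and cell stress reach them through MAP kinases, which activate serum response factor with its partners, CREB and ATF proteins. The FOS and JUN proteins pair through leucine zippers to form AP-1, which binds the DNA sequence TGACTCA. Egr1 encodes a zinc finger factor, and Myc encodes a factor that binds CACGTG with its partner MAX and drives growth genes. In the kidney, Fos, Jun, Egr1, Atf3 and Myc are known for their induction after ischemia.

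The DNA just upstream of these genes is shown as part of the DNA where such signals can act. Sites further upstream were not examined, and no binding sequence of serum response factor was among the motifs searched. Promoter windows from 250 bases before to 50 bases after the RefSeq transcription start (GRCm38.p6) were examined for 7 of the 10 genes. These genes are Fos, Fosb, Fosl2, Jun, Junb, Atf3 and Ier3. The windows of Egr1, Ier2 and Myc were not examined, which says nothing about whether RefSeq holds them. The windows of the FOS family members and of Jun are printed 5′ to 3′ on the strand of the gene, with matches to 6 short motifs in capitals. Their positions are chr12:85473640-85473939 (plus strand) for Fos, chr7:19309996-19310295 (minus strand) for Fosb, chr5:32136222-32136521 (plus strand) for Fosl2 and chr4:95052173-95052472 (minus strand) for Jun.
Fos promoter: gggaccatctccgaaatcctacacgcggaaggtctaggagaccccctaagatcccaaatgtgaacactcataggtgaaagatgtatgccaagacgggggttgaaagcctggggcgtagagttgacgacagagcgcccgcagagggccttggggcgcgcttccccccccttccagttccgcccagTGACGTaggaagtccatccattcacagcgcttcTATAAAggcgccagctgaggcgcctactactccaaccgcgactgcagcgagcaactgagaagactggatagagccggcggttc
Fosb promoter: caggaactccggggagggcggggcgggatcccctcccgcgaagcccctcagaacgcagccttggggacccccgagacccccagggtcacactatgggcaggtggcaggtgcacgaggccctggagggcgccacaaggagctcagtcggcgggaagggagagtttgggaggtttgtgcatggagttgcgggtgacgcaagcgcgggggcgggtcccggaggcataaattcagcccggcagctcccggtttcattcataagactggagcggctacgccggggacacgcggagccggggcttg
Fosl2 promoter: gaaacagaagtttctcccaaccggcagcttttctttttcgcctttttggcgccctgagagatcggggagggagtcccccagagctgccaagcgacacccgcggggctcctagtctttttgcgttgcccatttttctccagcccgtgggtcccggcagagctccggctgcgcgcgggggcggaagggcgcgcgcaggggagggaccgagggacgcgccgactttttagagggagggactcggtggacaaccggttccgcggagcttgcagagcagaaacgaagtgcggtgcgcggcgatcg
Jun promoter: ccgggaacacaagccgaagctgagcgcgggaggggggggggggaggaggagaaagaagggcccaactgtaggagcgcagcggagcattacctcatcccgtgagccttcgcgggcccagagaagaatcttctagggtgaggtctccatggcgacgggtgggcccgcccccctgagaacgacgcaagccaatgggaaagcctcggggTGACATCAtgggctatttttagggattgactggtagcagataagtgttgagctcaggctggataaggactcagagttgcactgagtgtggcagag
The motifs searched on both strands were the AP-1 site TGACTCA, the full CRE TGACGTCA, its core TGACGT, which lies within the full CRE, the variant TGACATCA, the TATA sequence TATAAA and the E-box CACGTG. Fos held TGACGT at -66 to -61 and TATAAA at -33 to -28, counted from the transcription start. Jun held TGACATCA at -45 to -38. Of the windows not printed, Atf3 held TGACGT on the opposite strand at -8 to -3 and Junb held TATAAA at 1 to 6. The windows of Fosb, Fosl2 and Ier3 held none of the 6. Among all 32851 mouse promoter windows, TGACGT was in 7.51%, TGACATCA in 3.62%, TATAAA in 13.6%, TGACTCA in 5.20%, TGACGTCA in 1.79% and CACGTG in 7.15%. These matches describe the letters of the windows only.

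Total counts ranged from 14939040 to 16425161 per library. Across the 16394 genes tested, Ksp-Cre mouse 3 stood apart, with a highest Pearson's r of log2 CPM of 0.960 to any other library, whereas each of the other 4 libraries reached 0.989 or 0.991 with a mouse of its own genotype. Genes are no replicates of one another, so these r describe the libraries only. Prdm16, the targeted gene, was at 25.3 and 20.02 CPM in the control mice and at 17.0 to 18.0 CPM in the Ksp-Cre mice (log2 fold change -0.38, standard error (SE) 0.15, adjusted p = 0.259 from edgeR), and these gene counts do not separate exon 9. Markers of proximal tubule, distal segments, collecting duct and podocytes were each detected in at least 1 library.

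All 10 genes had a positive log2 fold change in Ksp-Cre UIRI kidneys relative to control UIRI kidneys, from 0.42 (Ier3) to 1.13 (Myc), with a median of 0.69. The median over all genes tested was 0.038, and 54.0% of them were above 0. None of the 10 passed an adjusted p of 0.05 in edgeR's quasi-likelihood test, a threshold passed by 0.976% of all genes, by 0.104% in the higher and by 0.872% in the lower direction. When the size of the log2 fold change also had to reach 1, the share of all genes was 0.708%. At an unadjusted p under 0.05 there were 4, namely Myc, Fosl2, Jun and Ier2, beside 18.8% of all genes in either direction and 7.64% in the higher direction. DESeq2 called 3, Myc, Fosl2 and Jun, beside 7.54% of the genes it tested, and edgeR without the filter on low counts called 2, Myc and Fosl2, beside 1.84%. For 6 of the 10, Fos, Fosl2, Jun, Junb, Ier2 and Myc, all Ksp-Cre mice lay above both control mice, which was so for 20.3% of all genes. Without Ksp-Cre mouse 3, the library that stood apart, edgeR called 5 of the 10, Fosl2, Jun, Atf3, Ier2 and Myc, but it then called 18.9% of all genes. Since the tissue is a mixture, a shift in the share of a cell type and a shift in RNA per cell cannot be told apart.

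**Figure D1:**
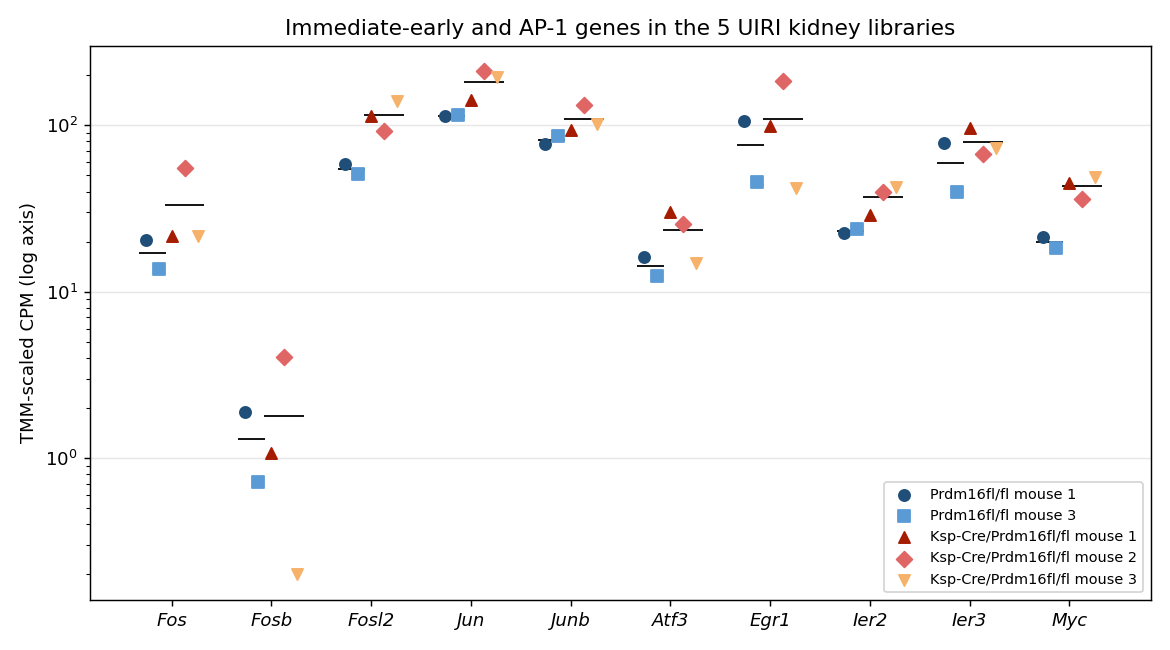
TMM-scaled CPM (log axis) of the 10 genes in each library, with a short line at the mean of each genotype. Myc and Fosl2 show the widest clear gap between the genotypes, whereas for Egr1 and Fosb the highest and the lowest value both came from Ksp-Cre mice.

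Myc, which encodes the MYC growth regulator (chromosome 15, 61857190 to 61862210, in the coordinates of the files), had the largest difference. Its level was 21.4 and 18.2 CPM in control mice 1 and 3 and 45.2, 36.3 and 48.6 CPM in Ksp-Cre mice 1, 2 and 3. The groups did not overlap, and every Ksp-Cre value was well above both controls. The means were 19.8 ± 2.22 CPM (SD, n = 2) and 43.4 ± 6.36 CPM (SD, n = 3). The fold was 2.19, and the log2 fold change of 1.13 (SE 0.17, adjusted p = 0.0505 from edgeR) fell just short of the threshold. With each mouse left out in turn it stayed between 1.02 and 1.25. The adjusted p for Myc ranged from 4.3e-05 with DESeq2 to 0.521 without control mouse 3 over 11 alternatives, of which 4 called it.

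Fosl2, which encodes the FOS-related antigen FRA-2 (chromosome 5, 32292599 to 32315184), behaved most like Myc. It stood at 58.7 and 50.7 CPM in control mice 1 and 3 and at 114, 92.1 and 140 CPM in Ksp-Cre mice 1, 2 and 3. Here too the genotypes were apart. The mean was 54.7 ± 5.65 CPM (SD, n = 2) against 115 ± 23.9 CPM (SD, n = 3), with a log2 fold change of 1.08 (SE 0.20, adjusted p = 0.0658 from edgeR). It was called in 3 of 11 alternatives, and leaving out one mouse at a time gave log2 fold changes of 0.92 to 1.22. Myc and Fosl2 ranked the 5 libraries identically, with Ksp-Cre mouse 3 highest, then mouse 1, mouse 2, and control mice 1 and 3. That order was seen for 3.10% of all genes.

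The JUN genes differed less, although their controls were tight. Jun, the main partner of FOS in AP-1 (chromosome 4, 94937273 to 94940459), was at 113 and 115 CPM in control mice 1 and 3 and at 142, 212 and 196 CPM in Ksp-Cre mice 1, 2 and 3. All Ksp-Cre values were above the controls, mouse 1 least. The log2 fold change of Jun was 0.68 (SE 0.19, adjusted p = 0.142 from edgeR), and DESeq2 gave an adjusted p = 0.0350. Junb, a JUN family member that can restrain Jun (chromosome 8, 85703538 to 85705377), was at 76.8 and 86.2 CPM in the control mice and at 93.3, 132 and 102 CPM in Ksp-Cre mice 1, 2 and 3. The gap between control mouse 3 and Ksp-Cre mouse 1 was small, and the log2 fold change of Junb was 0.42 (SE 0.18, adjusted p = 0.275), and 0.26 without Ksp-Cre mouse 2. Jun and Junb shared one order of the libraries, with Ksp-Cre mouse 2 highest, an order seen for 0.665% of all genes.

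Ier2, a single-exon early response gene that encodes a small nuclear protein (chromosome 8, 85387960 to 85389481), was close to Jun in size. It was at 22.4 and 23.7 CPM in the control mice and at 28.8, 39.8 and 42.8 CPM in Ksp-Cre mice 1, 2 and 3. The groups were apart, with Ksp-Cre mouse 1 nearest to the controls. The means were 23.0 ± 0.917 CPM (SD, n = 2) and 37.1 ± 7.39 CPM (SD, n = 3), a log2 fold change of 0.69 (SE 0.20, adjusted p = 0.148). For Ier2, as for Jun and Junb, leaving out any one mouse kept the sign.

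Fos, the founding AP-1 gene (chromosome 12, 85520664 to 85524048), depended on a single mouse. Its level was 20.5 and 13.7 CPM in control mice 1 and 3 and 21.6, 55.7 and 21.7 CPM in Ksp-Cre mice 1, 2 and 3. The groups did not overlap, but Ksp-Cre mice 1 and 3 exceeded control mouse 1 only slightly and mouse 2 was 2.56 times as high as mouse 3. The mean was 17.1 ± 4.801 CPM (SD, n = 2) against 33 ± 19.7 CPM (SD, n = 3). The log2 fold change of 0.95 (SE 0.48, adjusted p = 0.350) went to 0.34 without Ksp-Cre mouse 2 and to 1.27 without control mouse 1.

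Egr1, the early growth response factor (chromosome 18, 34994260 to 34998009), overlapped between the genotypes. It was at 106 and 45.5 CPM in control mice 1 and 3 and at 98.8, 185 and 42.0 CPM in Ksp-Cre mice 1, 2 and 3. The spread within each genotype was larger than the difference between them, 2.34 times from lowest to highest in the controls and 4.39 times in the Ksp-Cre mice. Its log2 fold change was 0.52 (SE 0.64, adjusted p = 0.704), and it turned to -0.11 without Ksp-Cre mouse 2, to 0.03 without control mouse 3 and to 1.25 without control mouse 1.

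Fosb, a FOS family member (chromosome 7, 19036621 to 19043970), was near the limit of detection, with 28 and 10 counts in control mice 1 and 3 and 19, 69 and 3 counts in Ksp-Cre mice 1, 2 and 3. In CPM these were 1.89 and 0.718, and 1.08, 4.08 and 0.200. Ksp-Cre mouse 2 was 20.4 times as high as mouse 3 (95% exact interval 6.69 to 101, for counting error only), and the controls lay between them. The log2 fold change of Fosb was 0.46 (SE 1.07, adjusted p = 0.850), and it turned to -0.99 without Ksp-Cre mouse 2 and to -0.07 without control mouse 3. Fosb and Egr1 placed the libraries in the same order, Ksp-Cre mouse 2, control mouse 1, Ksp-Cre mouse 1, control mouse 3 and Ksp-Cre mouse 3, which 0.927% of all genes did.

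Atf3, a stress-induced ATF family factor that pairs with JUN proteins (chromosome 1, 190902493 to 190915530), was at 16.2 and 12.3 CPM in the control mice and at 30.2, 25.6 and 14.9 CPM in Ksp-Cre mice 1, 2 and 3. Mouse 3 lay between the controls, and mice 1 and 2 lay above both. The log2 fold change of Atf3 was 0.72 (SE 0.32, adjusted p = 0.298), and without Ksp-Cre mouse 3 it was 0.97 (adjusted p = 0.0060 from edgeR).

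Ier3, which encodes an early response protein that protects against apoptosis (chromosome 17, 36132605 to 36133803), was at 78.5 and 39.5 CPM in control mice 1 and 3 and at 95.8, 67.5 and 73.2 CPM in Ksp-Cre mice 1, 2 and 3. control mouse 1 was above 2 of the Ksp-Cre mice, and control mouse 3 was below all of them. The log2 fold change of Ier3 was 0.42 (SE 0.31, adjusted p = 0.509), 0.004 without control mouse 3, 0.25 without Ksp-Cre mouse 1 and 0.995 without control mouse 1.

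**Figure D2:**
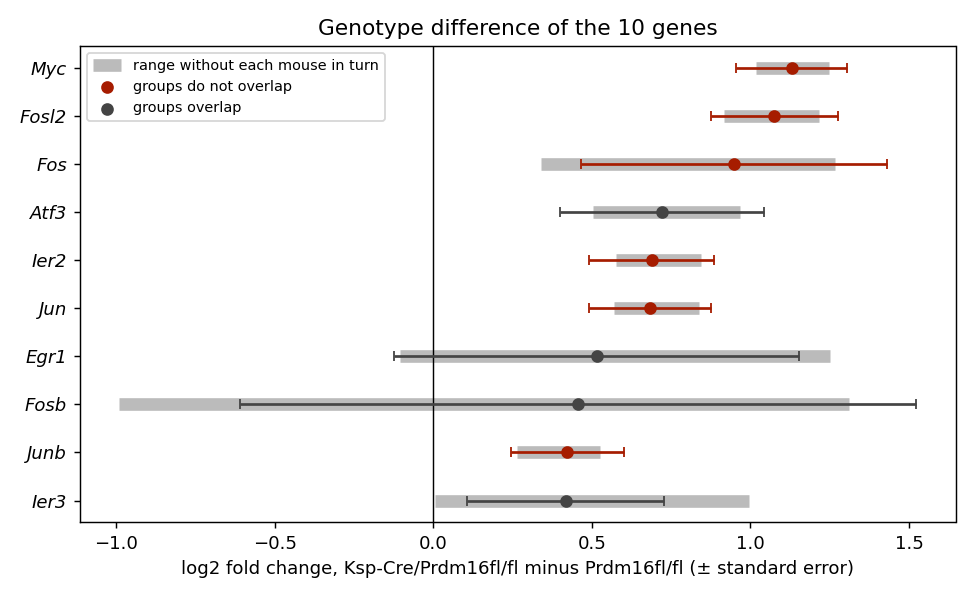
Log2 fold change of each gene (point) with its SE (thin bar) and the range over fits that leave out each mouse in turn (grey band), in red where the groups did not overlap. The bands of Myc, Fosl2, Ier2, Jun, Junb, Atf3 and Fos lay above 0, that of Ier3 reached 0.004, and those of Egr1 and Fosb crossed 0.

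The genes thus differed in how far mice of one genotype varied. In the Ksp-Cre mice the highest value was at least 2 times the lowest for 4 of the 10 genes, Fosb, Egr1, Fos and Atf3, beside 19.2% of all genes. In the control mice the ratio was at least 1.5 for 3, Fosb, Egr1 and Ier3, beside 10.0% of all genes. The ratio in the Ksp-Cre mice was between 1.34 (Myc) and 1.52 (Fosl2) for the other 6, and its median over all genes was 1.37. Among Ksp-Cre mice, mouse 2 was highest for 5 of the 10 (Fos, Fosb, Jun, Junb and Egr1), mouse 3 for 3 (Fosl2, Ier2 and Myc) and mouse 1 for 2 (Atf3 and Ier3). Over all genes the shares were 27.6% for mouse 2, 42.5% for mouse 3 and 29.9% for mouse 1. Set against the mean of the controls, the median of the 10 genes was 0.43, 0.86 and 0.38 on the log2 CPM scale in Ksp-Cre mice 1, 2 and 3, and 0.16 and -0.16 in control mice 1 and 3 themselves.

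**Figure D3:**
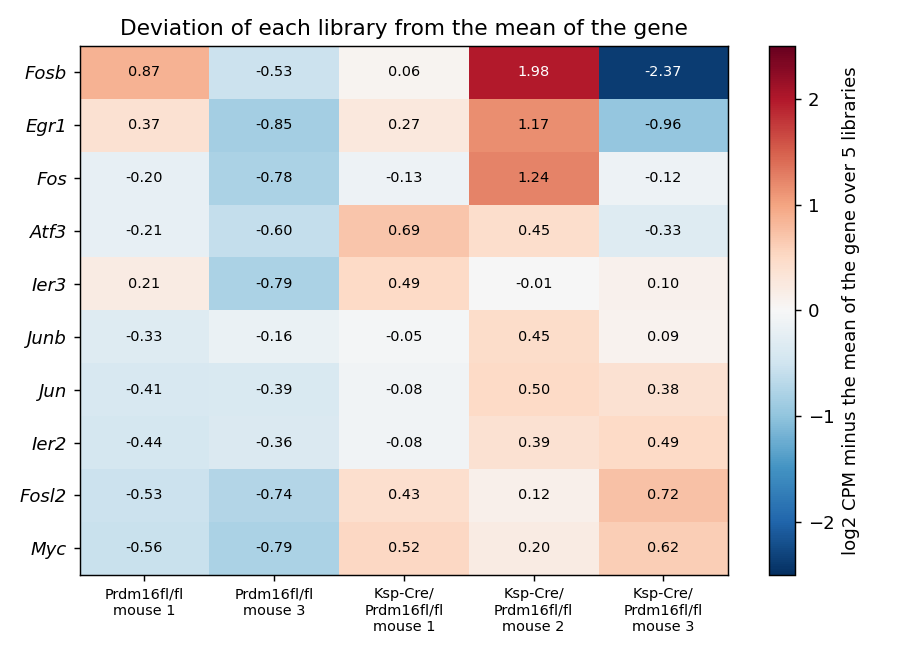
Log2 CPM of each gene in each library minus the mean of that gene over the 5 libraries (colour and printed value). Fosb, Egr1 and Fos peaked in Ksp-Cre mouse 2, at 1.98, 1.17 and 1.24, whereas Fosl2 and Myc peaked in mouse 3, at 0.72 and 0.62.

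Levels were compared between genes only per transcript length, as TPM within a genotype. In the control kidneys Ier3 was highest at 120 ± 63.6 TPM (SD, n = 2), followed by Junb at 96.7 ± 1.27, Jun at 78.2 ± 4.51, Egr1 at 55.1 ± 34.3 and Ier2 at 33.1 ± 0.964 TPM. Myc, Fos, Fosl2 and Atf3 lay together between 15.9 and 18.1 TPM, and Fosb was lowest at 0.771 ± 0.532 TPM. The ranges of neighbours in this order overlapped except between Junb and Jun, between Ier2 and Myc and between Atf3 and Fosb. In the Ksp-Cre kidneys the first 6 ranks were the same, from Ier3 at 187 ± 42.0 TPM (SD, n = 3) to Myc at 46.5 ± 5.31 TPM, followed by Fosl2, Fos, Atf3 and Fosb at 41.8, 40.9, 31.2 and 1.26 TPM. Only Ier2 and Myc, and Atf3 and Fosb, were apart among those neighbours. TPM were not compared between the genotypes, since their median over all genes was 0.26 higher on the log2 scale in the Ksp-Cre kidneys.

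The genes whose profile over the 5 libraries was nearest to that of Myc, by the root-mean-square difference of centred log2 CPM, were Mex3d (0.072), Fosl2 (0.075) and Zc3hav1l (0.077). Mex3d was at 6.07 and 5.31 CPM in the control mice and at 11.9, 9.51 and 12.7 CPM in the Ksp-Cre mice. For Fos the nearest were LOC68395 (0.27), Zbed6 (0.28) and Apol7e (0.28), at a larger distance, and Zbed6 was highest in Ksp-Cre mouse 2 at 9.33 CPM and between 3.30 and 6.07 CPM in the other 4 libraries.

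Beyond the 10 genes, 36 other early response genes were examined, of which 35 were tested. Of these 31 were above 0 and 4 below, with a median of 0.46. At an unadjusted p under 0.05 in edgeR there were 13, all higher, beside 7.64% of all genes in that direction. All Ksp-Cre mice lay above both control mice for 15 and below both for 1, beside 20.3% and 21.3% of all genes. In edgeR 1 passed the adjusted p, beside 0.976% of all genes. That gene was Ier5, an early response relative of Ier2. It was at 38.5 and 44.2 CPM in the control mice and at 72.5, 72.9 and 76.0 CPM in the Ksp-Cre mice, with almost no spread among the latter. Ier5 rose by 0.84 on the log2 scale (SE 0.12, adjusted p = 0.0443 from edgeR). The call for Ier5 was lost without control mouse 1 (0.74, adjusted p = 0.292), control mouse 3 (0.94, 0.496), Ksp-Cre mouse 1 (0.85, 0.131) or mouse 2 (0.85, 0.149), fits in which no gene passed. Nfkbiz, a gene of the IκB family, followed with a log2 fold change of 0.57 (SE 0.12, adjusted p = 0.0831). Errfi1, a feedback inhibitor of the EGF receptor, had the highest level in TPM of the list and scattered from 368 to 1280 CPM among the Ksp-Cre mice, around the 732 and 616 CPM of the controls. Among the 35 genes Ksp-Cre mouse 3 was the highest of its genotype for 20, mouse 2 for 9 and mouse 1 for 6.

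Relatives of the 10 genes were examined next. Of the other EGR and NR4A genes with their NAB corepressors, 7 of 8 were tested and all 7 were above 0, with a median of 0.40 and 0 past the adjusted p. Nr4a1, an orphan nuclear receptor, was at 21.7 and 10.7 CPM in the control mice and between 19.4 and 24.6 CPM in the Ksp-Cre mice. The corepressor genes Nab1 and Nab2 were at 0.12 and 0.20 on the log2 scale (adjusted p = 0.599 and 0.620). Of 6 other FOS, JUN, ATF3 and BATF family genes, 5 were tested, 3 of them above 0, with a median of 0.14. Jund, the most abundant of them in TPM, was at 152 and 160 CPM against 187, 166 and 253 CPM (log2 fold change 0.37, SE 0.20, adjusted p = 0.378), and Batf2, a BATF family gene, was at 1.01 to 1.59 CPM in all 5. MAF genes had 3 of 5 tested above 0 (median 0.17), and ATF and CREB genes had 10 of 10 (median 0.23), among which Creb5 had the smallest p (log2 fold change 0.53, adjusted p = 0.137). Maf and Maff were at 0.21 and 0.32 on the log2 scale and Atf7 and Atf4 at 0.29 and 0.23, with adjusted p of 0.611, 0.291, 0.242 and 0.689. In none of these 4 lists did a gene pass the adjusted p in edgeR. At an unadjusted p under 0.05 there were 2, Creb5 and Atf7, both higher, beside 7.64% of all genes in that direction. Of the 7 EGR, NR4A and NAB genes, 1, Nab1, had all Ksp-Cre mice above both control mice, and the others overlapped. It was so for 1 of the 5 FOS, JUN, ATF3 and BATF genes, beside 20.3% of all genes. Among the MAF genes it was 1 of 5, and among the ATF and CREB genes 5 of 10.

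Upstream, the 6 genes for serum response factor, its ternary complex partners and its myocardin-related coactivators were all above 0, with a median of 0.37. Mrtfa, one of those coactivators, was at 23.4 and 22.5 CPM against 30.4, 28.6 and 31.2 CPM (log2 fold change 0.39, SE 0.12, adjusted p = 0.168). The ternary complex factor genes Elk1 and Elk3 were at 0.35 and 0.25 on the log2 scale (adjusted p = 0.291 and 0.364). Of 21 MAP kinase cascade genes, 16 were above 0 and 5 below, with a median of 0.12 and 0 past the adjusted p, and at an unadjusted p under 0.05 there were 3 higher and 2 lower, 5 of 21 beside 18.8% of all genes. Map2k2, the kinase MEK2 upstream of ERK, was at 124 and 131 CPM against 94.9, 82.6 and 87.5 CPM (log2 fold change -0.53, SE 0.11, adjusted p = 0.0851), in the opposite direction to the 10 genes. Nras, a RAS GTPase, had a log2 fold change of 0.51 (SE 0.13, adjusted p = 0.123). Mapk3, the kinase ERK1, showed little difference, at 80.2 and 90.8 CPM against 83.8, 86.5 and 92.7 CPM.

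Downstream, 15 textbook AP-1 targets and 12 textbook MYC targets were listed. Of the 14 AP-1 targets tested, 12 were above 0, with a median of 0.89, and 0 passed the adjusted p in edgeR. At an unadjusted p under 0.05 there were 5, all higher, beside 7.64% of all genes in that direction. For 6 of the 14 all Ksp-Cre mice lay above both control mice, and for 0 below both, beside 20.3% and 21.3% of all genes. Spp1 and Mmp14 were among these 6, whereas the genotypes overlapped for the others, such as Plau, Cd44 and Vim. Spp1, which encodes the matrix protein osteopontin, was at 12277 and 13442 CPM in the control mice and at 27016, 28061 and 33774 CPM in the Ksp-Cre mice (log2 fold change 1.20, SE 0.24, adjusted p = 0.0741). Mmp14, a membrane-bound matrix metalloproteinase, was at 69.8 and 69.0 CPM against 116, 107 and 97.4 CPM (log2 fold change 0.63, adjusted p = 0.0726). Of the MYC targets, 9 of 12 were above 0, with a median of 0.13. At an unadjusted p under 0.05 in edgeR there were 0 higher and 1 lower, Odc1, beside 18.8% of all genes in either direction. Odc1, the rate-limiting enzyme of polyamine synthesis, went the other way from Myc itself, at 933 and 723 CPM against 471, 406 and 164 CPM, a log2 fold change of -1.25 (SE 0.43, adjusted p = 0.197), and Eif4e, a translation factor, was at -0.24 (adjusted p = 0.338). Of 12 genes of the MYC network, 10 were above 0, with a median of 0.078. In that list 0 had an unadjusted p under 0.05, and the genotypes overlapped for all 12. Max, which encodes the partner of MYC, was at 61.8 and 69.5 CPM against 68.2, 60.8 and 78.3 CPM. Mnt, a MYC antagonist, and Mlx, a MAX relative, were at 0.30 and -0.27 on the log2 scale (adjusted p = 0.519 and 0.483).

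**Figure D4:**
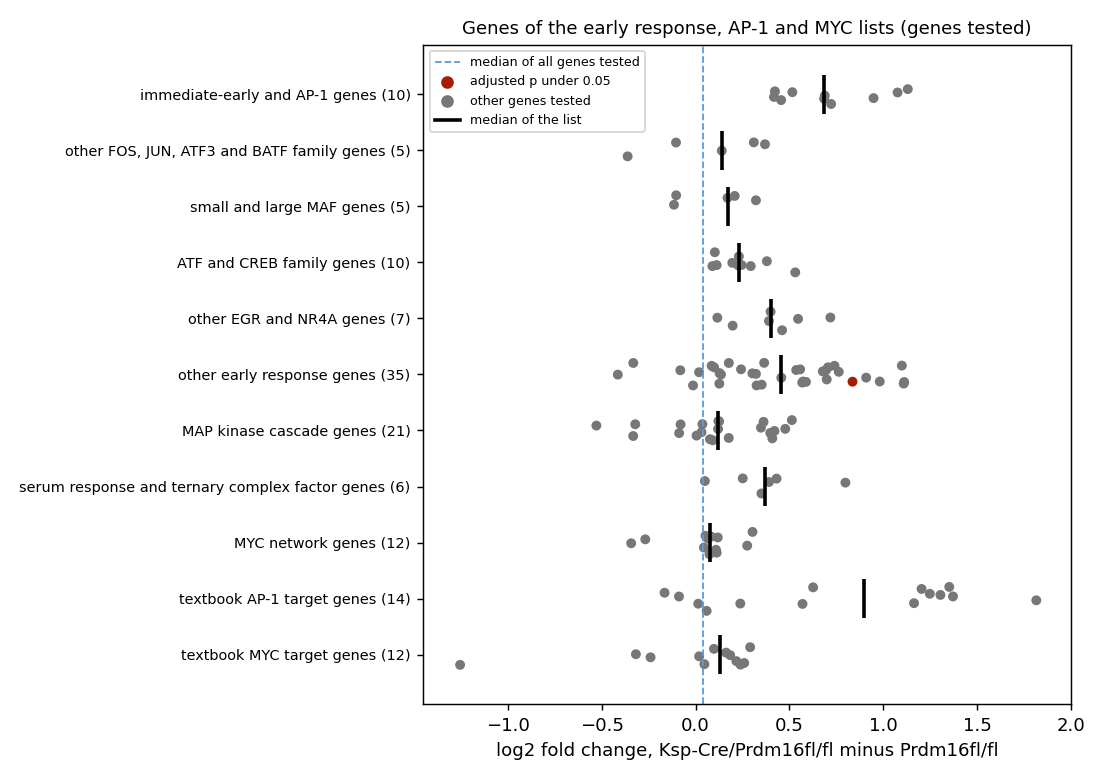
Log2 fold change of every tested gene in each list (points, with the number tested in parentheses), the median of each list (black line) and the median of all genes tested (dashed). Of the genes plotted, Ier5 alone passed the adjusted p, and the medians ran from 0.078 for the MYC network to 0.89 for the AP-1 targets.

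Markers of other cell types were measured in the same libraries. Among all these lists 1 marker, the podocyte gene Nphs1, passed the adjusted p in edgeR, beside 0.976% of all genes. All 8 tubular injury markers were above 0, and their summed level was 1241 to 1274 CPM in the control mice and 2224 to 2351 CPM in the Ksp-Cre mice. All 9 proximal tubule markers were below 0 (9356 to 9849 against 4164 to 4997 CPM). Fibroblast and pericyte markers were above 0 for 6 of 7 (383 to 525 against 620 to 864 CPM), and macrophage markers for 6 of 7, with overlapping sums (450 to 563 against 458 to 719 CPM). Endothelial markers were above 0 for 3 of 7 (271 to 285 against 216 to 304 CPM). Neutrophil markers were above 0 for 4 of the 5 tested and had low sums, 17.6 to 19.3 CPM against 20.5 to 35.1 CPM, with Ksp-Cre mouse 2 highest. Erythroid markers were above 0 for 5 of 5 (6.67 to 10.8 against 40.5 to 151 CPM), proliferation markers for 6 of 6, with overlapping sums (198 to 199 against 169 to 290 CPM), and lymphocyte markers for 1 of the 5 tested (33.8 to 38.4 against 21.3 to 42.4 CPM). Markers of the thick ascending limb and distal tubule, of the collecting duct and of podocytes were below 0 for 5 of 5, 6 of 6 and 4 of 4. Nphs1, which encodes the slit diaphragm protein nephrin, was at 53.9 and 50.01 CPM in the control mice and between 28.3 and 29.5 CPM in the Ksp-Cre mice, and it fell by 0.85 on the log2 scale (SE 0.11, adjusted p = 0.0412 from edgeR). That call held in 5 of 11 alternatives and was lost without control mouse 1 (adjusted p = 0.261), control mouse 3 (0.496), Ksp-Cre mouse 1 (0.131) or mouse 2 (0.145), with values between -0.90 and -0.80. No marker was at 0 in all 5 libraries. The part of these cell types in the values of the 10 genes was not tested.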

How the data were processed

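Kidney cortex RNA of 5 mice was sequenced, 1 library per mouse, and mice were grouped by the genotype in the labels. Before counting, adapter-containing and low-quality reads were discarded by the authors, who deposited an unnormalized count for every gene. Per the labels, the processing notes name CASAVA, featureCounts 2.0.1, DESeq2 1.16.1 and the build hg38, which is a human build, whereas the coordinates are of mouse chromosomes and differ from GRCm38. Aligner and strand setting are not given in the sources used here. The authors also deposited TPM and FPKM, which scale the count by merged exon length and library total, and both were recomputed from the counts to within rounding. No other listed gene overlaps any of the 10.

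Lines of 5 genes were broken and were rejoined. Genes were filtered with filterByExpr, scaled with TMM and tested between genotypes with edgeR 4.0.16 (quasi-likelihood test, R 4.3.3), without covariates, and p-values were adjusted by Benjamini-Hochberg over all 16394 genes tested. CPM are counts scaled to a common library total with TMM. A standard error is the log2 fold change divided by the root of its F statistic. The labels say that the libraries are separate mice. The edgeR and DESeq2 fits were also run on simulated counts, drawn with the mean of each gene and the dispersion trend of these data. Those counts hold neither the dispersion of single genes nor a library that stands apart, and no result here rests on them. Alternatives were DESeq2 1.42.0, other filters and scalings, fits without each mouse in turn, a block for the number of the mouse, and FPKM in place of TPM for the order of levels. The interval on the Fosb ratio is exact and covers counting error only.

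The 10 genes and all lists were chosen with earlier results of these data known, so they are described by counts and medians and were given no set test. Besides the 10, the genes named are, from each pathway list, those past the adjusted p and, where fewer than 2 passed, the 2 with the smallest p, the one with the highest TPM, and the 3 genes nearest in profile to Fos and to Myc. Nphs1, the cell marker that passed, was added after its value was seen. Python 3.11.15 and matplotlib 3.10.9 were used for tables and figures.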

Additional observations from a re-analysis of the deposited data

How the results depend on the processing

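Direction was stable for 8 of the 10 genes under every alternative, and Egr1 and Fosb turned. Fosb was -0.07 without control mouse 3 and -0.99 without Ksp-Cre mouse 2. It was -1.15 with the mouse number as a block and 1.31 without control mouse 1. Egr1 was -0.11 without Ksp-Cre mouse 2, -0.11 with the block and 1.25 without control mouse 1. Number 2 occurs only among the Ksp-Cre mice. The block fit thus compares the genotypes within mice 1 and 3 only and largely repeats the fit without Ksp-Cre mouse 2. The count of the 10 genes past an adjusted p of 0.05, 0 in the reported fit, was 3 with DESeq2, 2 without a filter beyond 1 count in total and 1 with at least 10 counts in every library, where Fosb was not tested. With each mouse left out it ranged from 0 to 5, the 5 without Ksp-Cre mouse 3. The same count over all genes, 160, was 1183 with DESeq2, 471 without the filter, 51 when scaled by library size, 0 with the block and 0 to 3053 with each mouse left out. It was 116 when a log2 fold change of at least 1 was also required. The median of the 10 genes was 0.69 and ranged from 0.54 without Ksp-Cre mouse 2 to 1.09 without control mouse 1. Scaling by library size moved the median of all genes from 0.038 to 0.15 and that of the 10 genes to 0.79. The cause of these shifts was not tested. Mice with the same number in the 2 genotypes did not deviate together (r of 0.001 and -0.022 across genes), so the numbers give no evidence of pairing. With 2 controls their deviations mirror each other, so the 2 r are not independent and cannot exclude pairing. The paper states that littermate controls were used, and the litters are not given. With the block the adjusted p was 0.190 for Ier5 and 0.198 for Nphs1, and Nphs1 was at 0.0730 when scaled by library size. The order of the genes by level was the same with FPKM. Fosb, with 3 to 69 counts, is limited by depth.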
